A study of Mus musculus with 15 samples.

Results

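Sterol synthesis in the heart was followed through 8 genes. They were chosen by name as genes of the cholesterol pathway and of the sterol regulatory element binding proteins (SREBPs), and all 8 were found among the 17447 genes counted and among the 13021 that passed the filter on low counts. Animal cells build cholesterol from acetyl-CoA through mevalonate, isoprenoid units, squalene and lanosterol, and a side branch of the same route supplies ubiquinone, the electron carrier on which heart muscle mitochondria depend. SREBP2, made from Srebf2, is held in the endoplasmic reticulum by INSIG proteins when sterols are plentiful, and is cut free to switch on the enzyme genes when sterols run short. SREBP1, made from Srebf1, acts mainly on fatty acid synthesis.

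RNA-seq of whole heart was compared among 15 libraries in 5 groups of 3, all from male C57BL/6J mice that were 6 to 8 weeks old at the start, with tissue taken 18 weeks after surgery. WTSHAM mice were wild type and had an operation in which no kidney was removed. WTCKD mice were wild type, had chronic kidney disease (CKD) made by 5/6 nephrectomy, and received the vector at week 2, counted from the end of surgery. WTCKD + RNLS mice had the same operation and received an AAV9 virus carrying renalase (RNLS) behind the cardiac troponin T promoter, which is active in cardiomyocytes. KOCKD and KOCKD + RNLS mice carried a knockout of RNLS made with a TALEN pair against exon 4, and were otherwise treated like WTCKD and WTCKD + RNLS mice. No vector is named for the sham group, so WTCKD against WTSHAM compares surgery and vector together, and no sham group of knockout mice was analysed here. The level of the targeted gene was not analysed here, so the genotype labels were not checked against it. The labels number the libraries within each group and do not say that each came from a separate mouse, so p-values measure the spread between these libraries.

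Total counts ran from 10480788 to 13424078 per library, with a median of 12011453, and levels are given as CPM (counts scaled to library size and by TMM), in which 1 read was worth between 0.0736 and 0.0937 CPM. Of 8 cardiomyocyte markers 8 were found, and their summed level lay between 93700 and 128000 CPM, with Myh6 as the most abundant. Of 4 hepatocyte markers counted, 0 passed the filter on low counts, and the most abundant, Ttr, stayed below 1 CPM in all libraries, so the label heart fits these markers. Fewer cells of a type and less RNA per cell cannot be told apart in whole tissue.

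Several libraries stood apart in genes other than the 8. WTSHAM replicate 1 differed from the other sham libraries in clock genes, with Arntl at 7.67, 21.4 and 32.6 CPM and Tef at 207, 94.0 and 75.3 CPM in the 3 sham libraries. KOCKD replicate 3 did so in its own group, where Arntl stood at 23.4, 24.5 and 9.99 CPM. WTCKD + RNLS replicate 2 stood apart in its counts, with a chi-square per degree of freedom of 21.5 and 19.6 against replicates 1 and 3. Between replicates 1 and 3 of that group it was 9. The same measure was 19.7 and 20.4 for WTSHAM replicate 1 and 10.4 and 11.5 for KOCKD replicate 3, against 9.05 and 8.96 between the other libraries of those groups. For WTCKD replicate 3 it was 8.29 and 12.8, against 5.76 between replicates 1 and 2 of WTCKD. Atrial markers also varied between libraries, with Myl7 at 420, 478 and 1.28 CPM in WTCKD and at 53.1, 4.85 and 805 CPM in KOCKD, while the 3 atrial markers tested other than Nppa summed to 29.5, 188 and 738 CPM in WTSHAM. Markers of adipocytes were uneven as well. Without Fabp4, which was the most abundant gene of that list, the 6 adipocyte markers tested summed to 5.42, 30.4 and 45.3 CPM in WTSHAM, to 23.8, 39.4 and 0.0851 CPM in WTCKD and to 1.41, 1.02 and 4.52 CPM in WTCKD + RNLS. In KOCKD the same sum was 37.4, 0.280 and 26.2 CPM, and in KOCKD + RNLS it was 16.3, 0.578 and 0.562 CPM.

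By the authors' FPKM, which divides by the gene lengths they used, Hmgcs1 had the highest mean level of the 8 genes, at 11.6 FPKM over 15 libraries. Srebf1 followed at 8.47 FPKM, Insig1 at 7.01, Fdft1 at 6.50, Srebf2 at 5.54 and Cyp51 at 3.99. Idi1, at 0.885 FPKM, and Sqle, at 0.397 FPKM, were far lower. The lengths recovered from counts and FPKM were 8003 bases for Fdft1 and 2748 for Sqle, against 2860 and 5546 exon bases in the mm9 annotation, so the places of these genes in the order are uncertain. Sqle rested on 2 to 32 reads per library with a median of 10, and Idi1 on 17 to 52, so that only large differences could be detected for these genes.

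**Figure D1:**
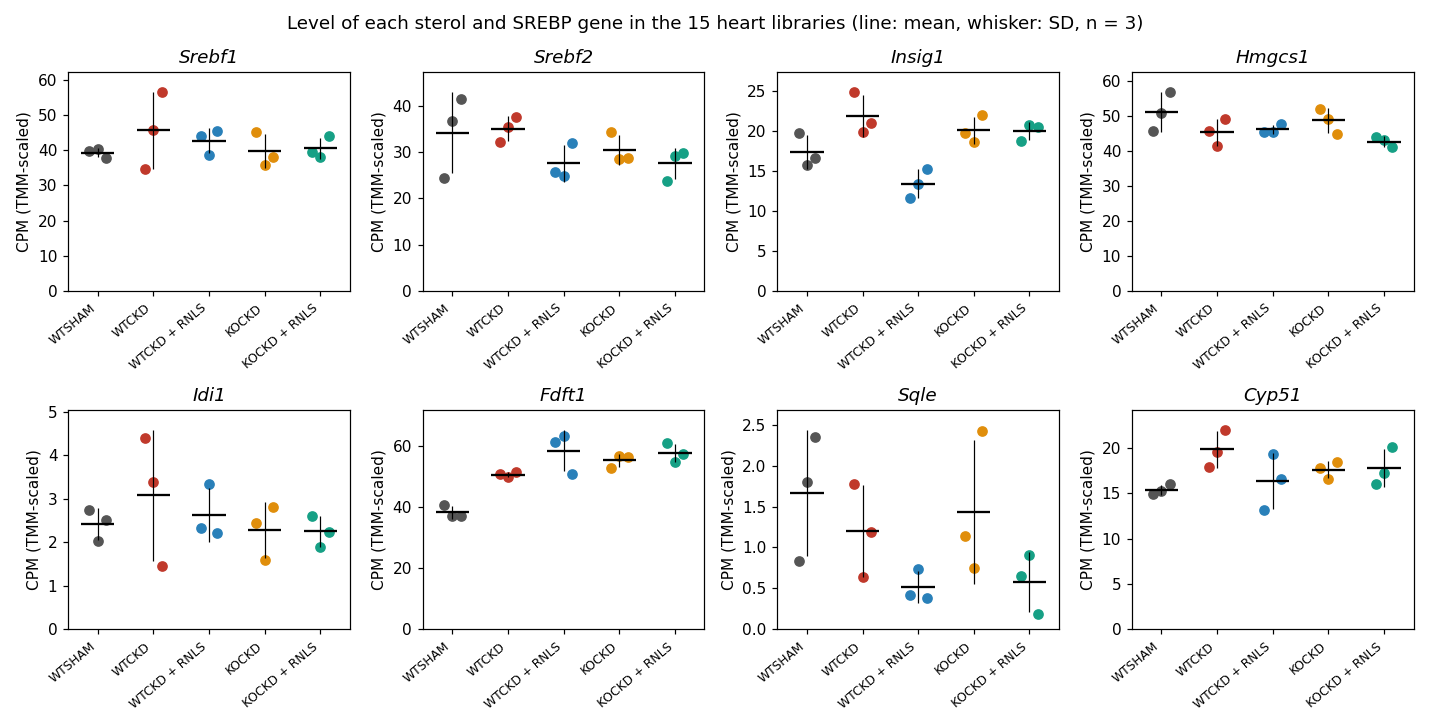
Level of each of the 8 genes in CPM (y axis, from 0) in the 5 groups (x axis). Each point is 1 library, the horizontal line is the mean and the vertical line is ± 1 SD (n = 3). All 12 CKD libraries lie above the 3 WTSHAM libraries for Fdft1, and the WTCKD + RNLS libraries lie lowest for Insig1.

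Of the regulators, Srebf1 encodes SREBP1. Its level was 39.8, 40.5 and 37.8 CPM in WTSHAM, 34.6, 45.8 and 56.5 CPM in WTCKD and 44.0, 38.6 and 45.4 CPM in WTCKD + RNLS. In KOCKD it was 45.2, 35.9 and 38.0 CPM and in KOCKD + RNLS it was 39.5, 38.0 and 43.9 CPM. The WTCKD libraries spread over the widest range and enclosed those of every other group. Group means stood, from high to low, in the order WTCKD, WTCKD + RNLS, KOCKD + RNLS, KOCKD and WTSHAM, and each neighbour in that order overlapped the next. Across the 5 groups the adjusted p was 0.619 by edgeR's quasi-likelihood test.

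Srebf2 encodes SREBP2, the main activator of the cholesterol enzymes. It stood at 24.4, 36.8 and 41.5 CPM in WTSHAM, at 32.1, 35.5 and 37.5 CPM in WTCKD and at 25.8, 24.9 and 32.1 CPM in WTCKD + RNLS. In KOCKD the values were 34.3, 28.5 and 28.8 CPM and in KOCKD + RNLS they were 23.8, 29.3 and 29.9 CPM. WTSHAM replicate 1, which stood apart in clock genes, had the second lowest value of all, below every library of WTCKD and KOCKD. The WTCKD + RNLS libraries lay just below those of WTCKD without overlap, at a log2 fold change of -0.34 (SE 0.16) with an adjusted p of 0.251 by edgeR's quasi-likelihood test. Against WTSHAM the log2 fold change was -0.31 for WTCKD + RNLS and -0.31 for KOCKD + RNLS, neither called with all libraries. Without WTSHAM replicate 1 these became -0.50 (adjusted p = 0.0254) and -0.50 (adjusted p = 0.0236) by edgeR's quasi-likelihood test, and both were called, in ranges of 0.0254 to 0.69 and 0.0236 to 0.657 over the alternatives.

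Insig1 encodes the protein that retains the SREBP complex in the endoplasmic reticulum, and is itself a target of SREBPs. Its level was 19.7, 15.7 and 16.6 CPM in WTSHAM and 24.9, 19.8 and 20.9 CPM in WTCKD. It was 11.6, 13.4 and 15.2 CPM in WTCKD + RNLS, below every library of the other 4 groups. The margin was narrow, at 15.2 CPM against 15.7 CPM in WTSHAM replicate 2, and the share of all genes separated in this way was not counted. The KOCKD libraries had 19.7, 18.5 and 21.9 CPM and the KOCKD + RNLS libraries 18.7, 20.8 and 20.5 CPM, which overlapped. In order of group means WTCKD was highest, followed by KOCKD, KOCKD + RNLS, WTSHAM and WTCKD + RNLS, and the last step was the only one between neighbours without overlap.

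In wild-type CKD hearts Insig1 fell with the RNLS virus, by a log2 fold change of -0.70 (SE 0.13, 95% interval -0.98 to -0.43) or -38.7%, with an adjusted p of 0.00734 by edgeR's quasi-likelihood test and a lower value in 3 of 3 libraries than in any WTCKD library. It was the only 1 of the 8 genes called in WTCKD + RNLS against WTCKD, where 4.47% of all genes tested were called. In knockout CKD hearts the log2 fold change of Insig1 with the virus was -0.006 (95% interval -0.28 to 0.27), and 0 of 8 genes were called by edgeR in KOCKD + RNLS against KOCKD (1 at an unadjusted p below 0.05 and 0 by DESeq2), against 16.1% of all genes. Of all 13021 genes 4116 had an unadjusted p below 0.05 by edgeR in that comparison. The difference between the genotypes in the effect of the virus was 0.70 (SE 0.18) with an adjusted p of 0.125 by edgeR's quasi-likelihood test, so it was not called, and 0 of 8 genes were (1 at an unadjusted p below 0.05 and 1 by DESeq2). With DESeq2 that adjusted p was 0.0312, in a range of 0.0312 to 0.29 over 19 alternatives. By edgeR 0 genes of 13021 (0%) were called for that difference, while 2288 had an unadjusted p below 0.05 and DESeq2 called 374. KOCKD + RNLS stood above WTCKD + RNLS by 0.57 (SE 0.13) without overlap, at an adjusted p of 0.0658 by edgeR, and 0 of 8 genes were called in that comparison (1 at an unadjusted p below 0.05 and 1 by DESeq2), where 0.338% of all genes were. Of all 13021 genes 2020 had an unadjusted p below 0.05 there by edgeR. For Insig1 DESeq2 gave an adjusted p of 0.0108 there, in a range of 0.0108 to 0.25 over 13 alternatives.

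Averaged over both genotypes, Insig1 was lower with the virus by -0.36 (SE 0.092, adjusted p = 0.0142 by edgeR's quasi-likelihood test), and it was the only 1 of the 8 called, where 18% of all genes were. This call was lost when offsets for gene length were used (-0.28, adjusted p = 0.0544 by edgeR), and kept in 18 of 19 alternatives (adjusted p = 0.00629 to 0.0544). WTCKD lay above WTSHAM for Insig1 without overlap, by 0.34 (SE 0.13), with an adjusted p of 0.179 by edgeR's quasi-likelihood test. The comparisons with WTCKD share its 3 libraries, so the higher WTCKD level and the lower WTCKD + RNLS level are not independent. Against WTSHAM, WTCKD + RNLS was at -0.37 (adjusted p = 0.1 by edgeR).

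Markers of other cell types differed in the same comparison. In WTCKD + RNLS against WTCKD, where 4.47% of all genes were called, 4 of 6 endothelial markers fell, Emcn by -0.61, Kdr by -0.59, Pecam1 by -0.55 and Cdh5 by -0.50, and the summed level of the 6, led by Kdr, went from 1300, 1230 and 1420 CPM to 966, 898 and 939 CPM, with 0 of the 6 genes at 0 in any library. The call was lost for Emcn without WTCKD replicate 2 (0.0519) and for Kdr without WTCKD + RNLS replicate 1 (0.0539), as adjusted p by edgeR. Of 6 fibroblast markers 2 were called, of which Col1a1 fell by -0.94 and Dpt by -0.72 (adjusted p = 0.0488 and 0.0321 by edgeR, each kept in 6 of 13 alternatives). The call was lost for Col1a1 without WTCKD replicate 1 (0.0809), WTCKD replicate 2 (0.193), WTCKD replicate 3 (0.0637), WTCKD + RNLS replicate 1 (0.153), WTCKD + RNLS replicate 2 (0.0918) or WTCKD + RNLS replicate 3 (0.0597) and with a replicate block (0.0725). It was lost for Dpt without WTCKD replicate 1 (0.0933), WTCKD replicate 2 (0.166), WTCKD + RNLS replicate 1 (0.0815), WTCKD + RNLS replicate 2 (0.0777) or WTCKD + RNLS replicate 3 (0.0536), and with a replicate block (0.0516) or gene length offsets (0.0502). The sum of the 6, led by Dcn, went from 1210, 1420 and 914 CPM to 963, 767 and 919 CPM. The 6 macrophage markers, led by C1qa, summed to 273, 267 and 204 CPM and 201, 182 and 180 CPM, all 6 lower, with 0 called by edgeR, 4 at an unadjusted p below 0.05 and 4 past the study's cutoffs on fold change and unadjusted p, applied here to edgeR's p. Of 7 adipocyte markers 7 were lower (median -3.22) and of 4 atrial markers 4 (median -2.88), with 0 called by edgeR in each, and 4 and 2 at an unadjusted p below 0.05. The 3 erythrocyte markers counted, led by Hba-a1, summed to 199, 137 and 19.5 CPM in WTSHAM and went from 11.1, 35.5 and 16.3 CPM in WTCKD to 152, 153 and 66.5 CPM in WTCKD + RNLS without overlap, at a median log2 fold change of 2.61. By edgeR 0 of these 3 were called (adjusted p = 0.072 to 0.108), while 3 met those cutoffs. The 8 cardiomyocyte markers, led by Myh6, went from 104000, 96900 and 112000 CPM to 116000, 128000 and 118000 CPM without overlap, with 0 called by edgeR and 3 at an unadjusted p below 0.05. Of all 13021 genes 2630 had an unadjusted p below 0.05 in this comparison by edgeR, 14.4% met those cutoffs and 47.8% were lower. The part of these cell types in the lower Insig1 level was not tested. In KOCKD + RNLS against KOCKD the endothelial sum went down without overlap, from 1210, 1320 and 1130 CPM to 1060, 1030 and 1050 CPM. All 6 of these markers were lower there and 3 had an unadjusted p below 0.05, against 4116 of all 13021 genes. Of the 6, 1 was called, where 16.1% of all genes were. This was Pecam1, by -0.29 (adjusted p = 0.0395 by edgeR), lost without KOCKD replicate 1 (0.0781), KOCKD replicate 2 (0.193), KOCKD + RNLS replicate 1 (0.0662), KOCKD + RNLS replicate 2 (0.105) or KOCKD + RNLS replicate 3 (0.141), and with no filter on low counts (0.0557) or gene length offsets (0.134).

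Of 15 clock genes, 8 rose and 3 fell in WTCKD + RNLS against WTCKD, where 4.47% of all genes were called. The largest differences were in Arntl (-4.06), Ciart (3.65), Per2 (3.07), Dbp (2.24) and Per3 (2.12), and Arntl went from 30.5, 30.8 and 34.0 CPM to 1.34, 1.86 and 2.45 CPM. Of these 5, Dbp was kept in 7 of 13 alternatives and lost without WTCKD replicate 1 (0.132), WTCKD replicate 2 (0.0869), WTCKD replicate 3 (0.0716), WTCKD + RNLS replicate 1 (0.0827) or WTCKD + RNLS replicate 3 (0.073), and with a replicate block (0.0516), as adjusted p by edgeR. Of the others called, Nr1d2 (0.77) was lost without WTCKD replicate 1 (0.0641), WTCKD replicate 2 (0.0869), WTCKD replicate 3 (0.0541), WTCKD + RNLS replicate 1 (0.075) or WTCKD + RNLS replicate 3 (0.0751), Bhlhe41 (0.89) without WTCKD replicate 1 (0.0971), WTCKD replicate 2 (0.0547), WTCKD replicate 3 (0.0766) or WTCKD + RNLS replicate 1 (0.112), and Clock (-0.68) without WTCKD replicate 2 (0.0583), in a range of 0.000465 to 0.0583 over 13 alternatives for Clock. In KOCKD + RNLS against KOCKD 7 clock genes rose and 2 fell, where 16.1% of all genes were called, with the largest differences in Arntl (-3.66), Per2 (2.37), Per3 (1.87), Ciart (1.79) and Hlf (1.60). There Per2 was lost without KOCKD replicate 2 (0.0509) in a range of 7.15e-05 to 0.0509, and Ciart without KOCKD replicate 1 (0.14), KOCKD replicate 2 (0.163), KOCKD + RNLS replicate 1 (0.0752), KOCKD + RNLS replicate 2 (0.0981) or KOCKD + RNLS replicate 3 (0.127), and with a replicate block (0.0521), DESeq2 (0.0903) or gene length offsets (0.0666), so that Ciart was kept in 5 of 13 alternatives. Of the others, Per1 was lost with gene length offsets (0.0516), in a range of 0.000294 to 0.0516, and Nr1d1 (-1.13) was lost without KOCKD replicate 1 (0.107), KOCKD replicate 3 (0.138), KOCKD + RNLS replicate 1 (0.153) or KOCKD + RNLS replicate 2 (0.112), and with gene length offsets (0.0969) or both libraries that stood apart in clock genes left out (0.0947). Nr1d2 (0.65) was lost without KOCKD replicate 1 (0.0763), KOCKD replicate 2 (0.102), KOCKD + RNLS replicate 2 (0.0888) or KOCKD + RNLS replicate 3 (0.0624), and with gene length offsets (0.0713). The part of the clock in the lower Insig1 level was not tested.

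Among the enzymes, Hmgcs1 encodes the cytosolic synthase that makes HMG-CoA at the start of the route. It stood at 45.8, 50.8 and 57.0 CPM in WTSHAM, 45.6, 41.4 and 49.1 CPM in WTCKD and 45.5, 45.5 and 47.8 CPM in WTCKD + RNLS. The values were 52.1, 49.3 and 45.0 CPM in KOCKD and 44.0, 43.2 and 41.0 CPM in KOCKD + RNLS. KOCKD + RNLS had the lowest mean and did not overlap KOCKD, WTSHAM or WTCKD + RNLS. The log2 fold change was -0.19 (SE 0.093, adjusted p = 0.171) against KOCKD and -0.26 (SE 0.092, adjusted p = 0.081) against WTSHAM by edgeR's quasi-likelihood test. Without WTSHAM replicate 1 the latter was -0.33 and was called (adjusted p = 0.0321 by edgeR, in a range of 0.0284 to 0.31 over the alternatives).

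Idi1 encodes the isomerase that balances the isoprenoid units. Its level ran from 1.45 to 4.40 CPM, and both ends of that range were WTCKD libraries. All 5 groups overlapped, the adjusted p across the groups was 0.754 by edgeR's quasi-likelihood test, and the sign of its difference changed with the library left out in several comparisons.

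Fdft1 encodes squalene synthase, the first enzyme committed to sterols. Its level was 40.7, 37.1 and 37.2 CPM in WTSHAM and 50.8, 49.9 and 51.4 CPM in WTCKD. It was 61.3, 63.4 and 50.8 CPM in WTCKD + RNLS, 52.9, 56.7 and 56.4 CPM in KOCKD and 60.9, 54.9 and 57.5 CPM in KOCKD + RNLS. All 12 CKD libraries were above all 3 sham libraries, which held for 317 of all genes tested (2.43%) and for 1 of the 8. WTCKD was the lowest of the CKD groups and did not overlap KOCKD, while WTCKD + RNLS, KOCKD + RNLS and KOCKD overlapped one another.

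Fdft1 rose in WTCKD against WTSHAM by a log2 fold change of 0.40 (SE 0.087, 95% interval 0.22 to 0.59) or 32.3%, with an adjusted p of 0.022 by edgeR's quasi-likelihood test. It was the only 1 of the 8 genes called there, against 2.3% of all genes. The rise against the same sham libraries was 0.53 (SE 0.087, adjusted p = 0.00215) in KOCKD, where 1 of 8 genes and 13.8% of all genes were called. In WTCKD + RNLS it was 0.61 (SE 0.087, adjusted p = 0.000648), with 1 of 8 and 7.69% called. In KOCKD + RNLS it was 0.59 (SE 0.087, adjusted p = 0.000554), with 1 of 8 and 11.1% called. These 4 comparisons share the WTSHAM libraries, and 29 genes (0.223%) were called higher in each of them. The call in WTCKD was lost without WTSHAM replicate 2 (0.085), WTSHAM replicate 3 (0.0825), WTCKD replicate 1 (0.0797), WTCKD replicate 2 (0.0624) or WTCKD replicate 3 (0.0857), as adjusted p by edgeR, at log2 fold changes of 0.38 to 0.41, and with the libraries of these groups alone (0.0573), in a range of 0.00352 to 0.0857 over 13 alternatives. The calls in the other 3 groups were kept in each alternative tried. Between CKD groups Fdft1 differed by 0.21 with the virus in wild type (adjusted p = 0.193 by edgeR) and by 0.063 in knockout (adjusted p = 0.653).

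Cell type markers and clock genes also differed from WTSHAM in these comparisons, where 2.3% of all genes were called in WTCKD, 13.8% in KOCKD, 7.69% in WTCKD + RNLS and 11.1% in KOCKD + RNLS. In WTCKD edgeR called 0 of 6 macrophage markers (3 at an unadjusted p below 0.05, 1 by DESeq2), 0 of 8 cardiomyocyte markers (4 and 0) and 0 of 3 erythrocyte markers (3 and 1). Of all 13021 genes 2298 had an unadjusted p below 0.05 by edgeR in that comparison, and the number called by DESeq2 is given further below. Leaving out 1 library, 0 to 1 macrophage and 0 to 3 erythrocyte markers were called in WTCKD, the most without WTSHAM replicate 1 and without WTSHAM replicate 3, respectively. Macrophage markers fell by edgeR in the other groups, 6 of 6 in KOCKD, 5 in WTCKD + RNLS and 6 in KOCKD + RNLS, from sums of 297, 358 and 329 CPM in WTSHAM to 209, 210 and 173 CPM, 201, 182 and 180 CPM and 193, 142 and 143 CPM. Leaving out 1 library, 4 to 6, 4 to 5 and 5 to 6 were called, each at its lowest without WTSHAM replicate 2. Of 6 fibroblast markers 2, 2 and 3 fell (0 to 5, 1 to 3 and 2 to 5 called, lowest without WTSHAM replicate 2). Of 6 endothelial markers 0, 3 and 1 fell in KOCKD, WTCKD + RNLS and KOCKD + RNLS. Leaving out 1 library, 0, 1 to 5 and 0 to 2 of these were called. In KOCKD + RNLS 1 of 2 brown adipocyte markers fell, with 0 to 1 called leaving out 1 library. Of 4 atrial markers there edgeR called 0 (0 to 3 leaving out 1 library), 3 had an unadjusted p below 0.05 and DESeq2 called 3. Of 8 cardiomyocyte markers 3 rose and 2 fell in KOCKD and 4 rose in WTCKD + RNLS (2 to 6 and 1 to 5 called, lowest without WTSHAM replicate 3). In KOCKD + RNLS 0 of these 8 were called by edgeR, 4 had an unadjusted p below 0.05 and DESeq2 called 1. Over 13 alternatives the number called there ran from 0 to 5. Of all 13021 genes 3422 had an unadjusted p below 0.05 by edgeR in KOCKD + RNLS against WTSHAM. Of 15 clock genes 10 were called in WTCKD + RNLS (3 to 12, lowest without WTSHAM replicate 2) and 11 in KOCKD + RNLS (6 to 12, lowest without WTSHAM replicate 3), against 1 in KOCKD (0 to 4, lowest without WTSHAM replicate 3). The part of these cell types and of the clock in the Fdft1 level was not tested.

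In the mm9 annotation Fdft1 lies on the minus strand at chr14:63763990-63796630, and 769 of its exon bases overlap Ctsb on the opposite strand. Ctsb, which encodes the lysosomal protease cathepsin B, had 670, 669 and 652 CPM in WTSHAM and 684, 648 and 651 CPM in WTCKD. Set against WTSHAM, Ctsb differed by -0.005 in WTCKD, 0.004 in WTCKD + RNLS and -0.032 in KOCKD, none of them called. It fell by -0.25 in KOCKD + RNLS (adjusted p = 0.0263 by edgeR). That fall was lost without WTSHAM replicate 1 (0.0537), WTSHAM replicate 2 (0.082), WTSHAM replicate 3 (0.0642), KOCKD + RNLS replicate 1 (0.0728), KOCKD + RNLS replicate 2 (0.114) or KOCKD + RNLS replicate 3 (0.107), and with no filter on low counts (0.0592), gene length offsets (0.111) or both libraries that stood apart in clock genes left out (0.0634), as adjusted p by edgeR. In KOCKD + RNLS against KOCKD Ctsb fell by -0.21 (adjusted p = 0.0404 by edgeR, kept in 6 of 13 alternatives), lost without KOCKD replicate 1 (0.156), KOCKD replicate 2 (0.126), KOCKD + RNLS replicate 1 (0.0963), KOCKD + RNLS replicate 2 (0.139) or KOCKD + RNLS replicate 3 (0.127), with no filter on low counts (0.0991) and with gene length offsets (-0.064, adjusted p = 0.631). Srebf1 likewise shares 109 exon bases with Rai1 on the opposite strand, and Rai1 rose by 0.44 in KOCKD + RNLS against KOCKD (adjusted p = 0.0373 by edgeR), kept in 6 of 13 alternatives. That rise was lost without KOCKD replicate 1 (0.0512), KOCKD replicate 2 (0.126), KOCKD replicate 3 (0.0811), KOCKD + RNLS replicate 1 (0.0806), KOCKD + RNLS replicate 2 (0.0865) or KOCKD + RNLS replicate 3 (0.095), and with gene length offsets (0.069, adjusted p = 0.751 by edgeR, range 0.00382 to 0.751). In WTCKD + RNLS against WTCKD Rai1 was higher by 0.37 without overlap (adjusted p = 0.129 by edgeR), and averaged over the genotypes it rose by 0.40 (adjusted p = 0.00841 by edgeR), lost with gene length offsets (0.18, adjusted p = 0.113, range 0.00084 to 0.113). The study used a strand-specific library kit (TruSeq), but the strand option of the counting is not given in the sources used here. Without it, it is not known whether reads of the shared stretch were kept apart. The part of such reads in the Fdft1 and Srebf1 levels was not tested. The length the authors used for Fdft1 was longer than its exons here, and the overlap of their gene model was not examined. For Insig1, on the plus strand at chr5:28397952-28405201, the recovered length was 2648 bases against 2647 exon bases, and no exon of another gene overlaps it there.

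Sqle encodes squalene epoxidase, which adds oxygen to squalene before the ring closes. Its level was 0.834, 1.80 and 2.35 CPM in WTSHAM, 1.77, 0.643 and 1.19 CPM in WTCKD and 0.417, 0.743 and 0.383 CPM in WTCKD + RNLS. In KOCKD it was 1.14, 0.745 and 2.42 CPM and in KOCKD + RNLS 0.650, 0.910 and 0.187 CPM. Both RNLS groups had the lowest means, and each overlapped its vector group. The log2 fold change with the virus was -1.24 (SE 0.62) in wild type and -1.28 (SE 0.59) in knockout, at adjusted p-values of 0.276 and 0.15 by edgeR's quasi-likelihood test. Without KOCKD replicate 3 the latter shrank to -0.66 (adjusted p = 0.534 by edgeR, in a range of 0.124 to 0.534 over the alternatives). Averaged over the genotypes it was -1.26 (SE 0.43, adjusted p = 0.0516), just outside the threshold, and DESeq2 gave 0.0384 in a range of 0.0372 to 0.154 over 19 alternatives. It was called without WTCKD replicate 2 (-1.39, adjusted p = 0.0441), WTCKD + RNLS replicate 2 (-1.43, 0.0372) or KOCKD replicate 2 (-1.41, 0.0408) by edgeR. WTCKD + RNLS lay below WTSHAM without overlap, at -1.71 (adjusted p = 0.0895 by edgeR), and without WTSHAM replicate 1 this was -2.02 and called (adjusted p = 0.0381, range 0.0274 to 0.28). The part of adipocytes and atrial tissue, which were uneven between libraries, in the Sqle level was not tested.

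Cyp51 encodes lanosterol demethylase, which works on the sterol ring itself. Its level was 14.9, 15.3 and 15.97 CPM in WTSHAM and 17.9, 19.6 and 21.9 CPM in WTCKD, without overlap. It was 13.1, 19.3 and 16.5 CPM in WTCKD + RNLS, 17.8, 16.6 and 18.4 CPM in KOCKD and 16.01, 17.2 and 20.1 CPM in KOCKD + RNLS, each overlapping WTCKD, and KOCKD and KOCKD + RNLS lay above WTSHAM without overlap. The difference between WTCKD and WTSHAM was 0.36 (SE 0.14) with an adjusted p of 0.17 by edgeR's quasi-likelihood test. By the cutoffs of the study on fold change and unadjusted p, applied here to edgeR's p and not to the DESeq test of the authors, Fdft1, Cyp51 and Insig1 were higher in WTCKD.

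Those cutoffs, with edgeR's p, were met by 3 of 8 in WTCKD against WTSHAM, where 11.3% of all genes were, by 1 of 8 in WTCKD + RNLS against WTCKD, where 14.4% of all genes were, and by 1 of 8 in KOCKD + RNLS against KOCKD, where 22.3% of all genes were. They were met by 0 of 8 in KOCKD against WTCKD, where 5.62% of all genes were, by 1 of 8 in KOCKD + RNLS against WTCKD + RNLS, where 8.56% of all genes were, by 1 of 8 in the difference between the genotypes, where 15.2% of all genes were, and by 2 of 8 in mean RNLS effect over both genotypes, where 16.7% of all genes were. Against the sham libraries they were met by 3 of 8 in WTCKD + RNLS against WTSHAM, where 16% of all genes were, by 2 of 8 in KOCKD + RNLS against WTSHAM, where 18.9% of all genes were, and by 1 of 8 in KOCKD against WTSHAM, where 21.4% of all genes were.

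**Figure D2:**
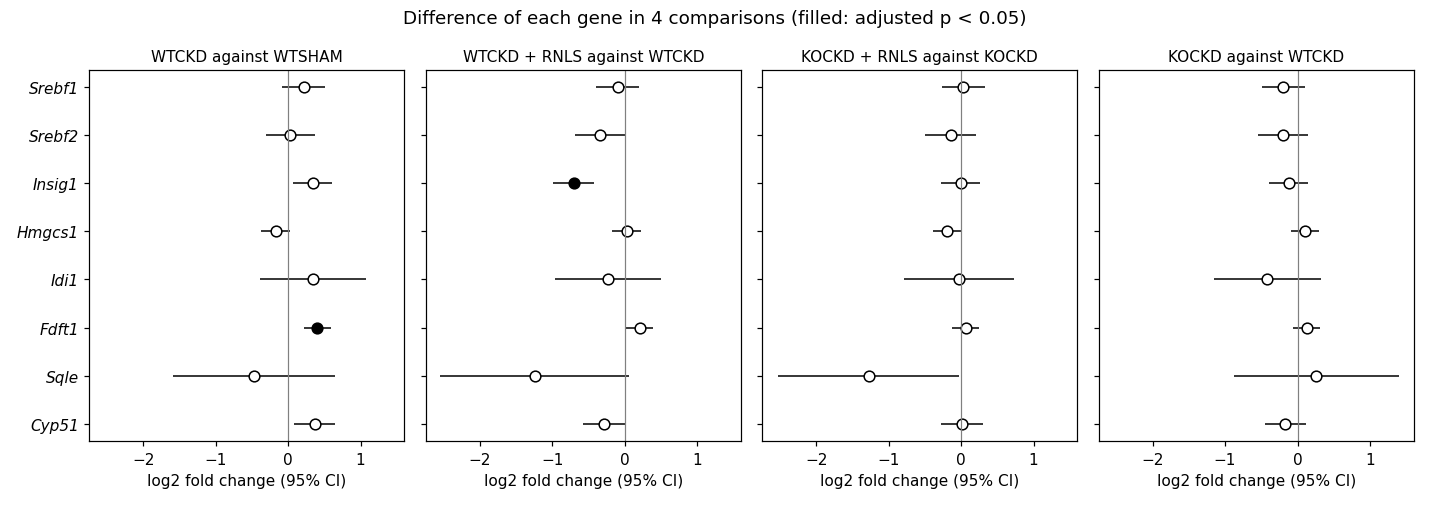
Log2 fold change of each of the 8 genes (x axis) with its 95% interval from edgeR's fit in 4 comparisons. Filled points are called at an adjusted p below 0.05, which holds for Fdft1 in WTCKD against WTSHAM (0.40) and Insig1 in WTCKD + RNLS against WTCKD (-0.70).

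In KOCKD against WTCKD 0 of 8 genes (0 at an unadjusted p below 0.05 and 0 by DESeq2) and 0 of 13021 genes (0%) were called by edgeR, 1318 genes had an unadjusted p below 0.05, and DESeq2 called 10. The median difference of the 8 genes on the log2 scale stood at 0.28 for WTCKD against WTSHAM, -0.26 for WTCKD + RNLS against WTCKD, -0.017 for KOCKD + RNLS against KOCKD and -0.15 for KOCKD against WTCKD. Over all genes tested these medians were -0.005, 0.012, -0.009 and -0.005. For any difference among the 5 groups, 2 of 8 genes, Fdft1 (adjusted p = 0.00105) and Insig1 (0.00944), were called by edgeR's quasi-likelihood test, against 22.2% of all genes.

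Over 15 libraries the Pearson correlation of log2 CPM between pairs of the 8 genes ranged from -0.60 to 0.56, with a median of 0.02 over 28 pairs and of 0.01 over the 10 pairs of enzymes. The points share groups, depth and tissue makeup. Among the genes most like the mean of the 5 enzymes were Arl1 (r = 0.784), Tceal8 (0.784), Sec22a (0.773) and Selenow (0.76). For Insig1 they were Fez1 (0.861), Tspyl5 (0.857) and Prkcq (0.844), for Srebf1 Dlgap4 (0.764), Tmem131l (0.764) and Atmin (0.747), and for Srebf2 Akap1 (0.908), Nlk (0.894) and Wipf1 (0.854), each over 15 libraries.

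Of 14 further enzymes of the pathway, 0 were called by edgeR in WTCKD against WTSHAM and in KOCKD against WTCKD, where 1 and 0 had an unadjusted p below 0.05 and 2.3% and 0% of all genes were called. Of all 13021 genes 2298 and 1318 had an unadjusted p below 0.05 in these comparisons. In WTCKD + RNLS against WTCKD, with 4.47% of all genes called, 0 rose and 1 fell, Hsd17b7, the sterol ketone reductase, by -0.83 (SE 0.21, adjusted p = 0.0298 by edgeR), from 22.4, 23.2 and 24.1 CPM to 12.4, 10 and 16.5 CPM. The call was lost without WTCKD replicate 1 (0.0693), WTCKD replicate 2 (0.0854), WTCKD replicate 3 (0.0639), WTCKD + RNLS replicate 1 (0.094) or WTCKD + RNLS replicate 2 (0.0738), as adjusted p by edgeR, at -0.87 to -0.70. In KOCKD + RNLS against KOCKD, with 16.1% of all genes called, 1 fell, Tm7sf2, a sterol reductase, by -0.98 (SE 0.30, adjusted p = 0.0376 by edgeR), from 2.45, 1.96 and 2.90 CPM to 1.06, 1.08 and 1.59 CPM, and it was kept in 5 of 13 alternatives and lost without KOCKD replicate 1 (0.0753), KOCKD replicate 2 (0.056), KOCKD replicate 3 (0.123), KOCKD + RNLS replicate 1 (0.122) or KOCKD + RNLS replicate 2 (0.132), at -1.11 to -0.83, and with no filter on low counts (0.0587), gene length offsets (0.159) or both libraries that stood apart in clock genes left out (0.107). For these 14 genes the medians were 0.016, -0.02, -0.17 and 0.12 in WTCKD against WTSHAM, WTCKD + RNLS against WTCKD, KOCKD + RNLS against KOCKD and KOCKD against WTCKD. Of 8 genes that process SREBPs, such as Scap and Insig2, 0 were called by edgeR in any of these 4 comparisons, and 0 had an unadjusted p below 0.05. Of 9 other SREBP2 targets, 1 was called in these 4 comparisons, Aacs, which activates acetoacetate for lipid synthesis. It fell in WTCKD + RNLS against WTCKD, where 4.47% of all genes were called, by -0.82 (SE 0.23, adjusted p = 0.0492 by edgeR), from 5.83, 7.07 and 5.44 CPM to 4.01, 2.88 and 3.45 CPM, and was kept in 3 of 13 alternatives and lost without WTCKD replicate 1 (0.101), WTCKD replicate 2 (0.188), WTCKD replicate 3 (0.0586), WTCKD + RNLS replicate 1 (0.075), WTCKD + RNLS replicate 2 (0.101) or WTCKD + RNLS replicate 3 (0.118), at -0.95 to -0.70, and with no filter on low counts (0.0531), a replicate block (0.071), the libraries of these groups alone (0.0837) or gene length offsets (0.054). For this list 2 genes fell in the mean RNLS effect and 1 in KOCKD against WTSHAM, where 18% and 13.8% of all genes were called.

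Promoter windows are shown for Hmgcs1 and Insig1, the 2 genes in which a sterol element or an E-box was found. Windows from 250 bases before to 50 after the start were taken from RefSeq (GRCm38.p6) and searched on both strands for TCACNCCAC, a sterol regulatory element consensus, CCAAT, the NF-Y box, GGGCGG, the GC box, and CACGTG, the E-box. Of the 8 genes, 6 matched the table with 8 windows, and the promoters of Sqle and Fdft1 were not analysed here. TCACNCCAC was found in 1 of the 6, Hmgcs1, and in 1.44% of all 27025 genes with windows. CCAAT and GGGCGG were each found in 6 of 6, against 41.1% and 38.2% of those genes, and in 7 of the 8 windows, against 37.4% and 35.7% of all 32851 windows. CACGTG was found in 1 of 6, Insig1, and in 8.09% of those genes. Of 12 other pathway enzymes in the table, 0 held TCACNCCAC, 11 held CCAAT, 11 GGGCGG and 3 CACGTG. The windows of Hmgcs1, chr13:119690101-119690400 on the plus strand with TCACNCCAC starting at position -137 from the start, and of Insig1, chr5:28071162-28071461 on the plus strand with CACGTG at -101, are given with these matches in capitals, and no match of a motif overlapped another in them.
Hmgcs1: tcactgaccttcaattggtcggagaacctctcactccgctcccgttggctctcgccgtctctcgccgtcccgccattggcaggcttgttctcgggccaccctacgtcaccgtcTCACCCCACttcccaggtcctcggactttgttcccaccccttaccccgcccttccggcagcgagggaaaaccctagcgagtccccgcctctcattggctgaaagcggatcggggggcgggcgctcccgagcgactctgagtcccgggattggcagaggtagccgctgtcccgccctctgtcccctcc
Insig1: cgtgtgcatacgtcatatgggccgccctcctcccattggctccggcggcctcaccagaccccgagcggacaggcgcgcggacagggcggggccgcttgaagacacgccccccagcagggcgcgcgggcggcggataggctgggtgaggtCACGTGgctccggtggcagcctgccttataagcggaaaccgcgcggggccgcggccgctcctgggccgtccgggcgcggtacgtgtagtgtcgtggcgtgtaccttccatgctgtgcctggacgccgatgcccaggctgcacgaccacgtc
These matches describe letters only, and a motif that was not found says nothing of the factor.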

How the data were processed

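RNA was sequenced from 15 heart libraries in 5 groups of 3. The authors trimmed reads with Trimmomatic, mapped them with HISAT2, and deposited counts per gene from HTSeq and FPKM, which their methods credit to Cufflinks. The FPKM equalled the counts divided by the library total and 1 length per gene, with a largest relative spread of 1.5e-06 in that length. They are therefore not a separate measurement. The genome was mm9 in the study's methods and GRCm39 in the submitters' processing notes. Versions, handling of reads with several matches and the strand option are not given in the sources used here, so counts of Idi1, which has a close copy in Idi2, are uncertain. Which libraries ran on which of the sequencers the study used is not given either. Counts were scaled by TMM, filtered with filterByExpr, and tested in edgeR 4.0.16 (R 4.3.3) with 1 quasi-likelihood fit over 15 libraries with group as the only term, 2-sided, with Benjamini-Hochberg adjustment over 13021 genes. A gene was called at an adjusted p below 0.05. DESeq2 was 1.42.0. Steps were tested on simulated data. The study's cutoffs (fold change over 1.25, unadjusted p below 0.05) are given beside, applied to edgeR's p, while the authors tested with DESeq. Positions are from the GENCODE mm9 annotation, figures from matplotlib 3.10.9. Named genes were the 8 in every comparison, list genes called (at most 5 a list and comparison), and the 5 or 3 genes of highest correlation, of which 1 is not reported here, while Ctsb and Rai1 for their overlap, and Per1, Nr1d1, Nr1d2, Bhlhe41 and Clock for their lost calls, were added after values were seen. Alternatives were DESeq2, RLE scaling, no filter, a replicate block, only the libraries compared, gene length offsets and leaving out libraries. Members and lists were chosen with earlier results of these data known.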

Additional observations from a re-analysis of the deposited data

Results flagged for a closer look

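Hsd17b7 was picked out because its libraries separated in opposite directions with the virus in the 2 genotypes, the only 1 of 131 genes of the lists examined to do so. How many of all 13021 genes tested separated in this way was not counted. The tests given for Hsd17b7 use the same libraries that picked it out. It was 22.4, 23.2 and 24.1 CPM in WTCKD and 12.4, 10 and 16.5 CPM in WTCKD + RNLS, and 18.2, 13.9 and 20.5 CPM in KOCKD and 24.0, 28.4 and 24.5 CPM in KOCKD + RNLS. The log2 fold change was -0.83 in wild type (adjusted p = 0.0298) and 0.54 in knockout (adjusted p = 0.076) by edgeR's quasi-likelihood test. The difference between them was 1.38 (SE 0.29), with an adjusted p of 0.105 by edgeR, which was not called, and of 0.00204 by DESeq2, in a range of 0.00204 to 0.271 over 19 alternatives.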

How the results depend on the processing

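The fall of Insig1 in WTCKD + RNLS against WTCKD kept its direction and call in all 13 alternatives (-0.81 to -0.61, adjusted p = 0.000213 to 0.0357 by edgeR or DESeq2), as did the rise of Fdft1 in KOCKD, WTCKD + RNLS and KOCKD + RNLS against WTSHAM. No pairing by replicate number was seen, since same-numbered deviations correlated at -0.36 to 0.232 with 1 of 12 pairs over 0.1. With 3 libraries per group this check could miss a pairing. RLE scaling, DESeq2 and gene length offsets moved the median log2 fold change of all genes by at most 0.01, 0.012 and 0.086. Sqle and Idi1 rest on few reads, which limits what could be detected. Fewer libraries in a fit leave fewer degrees of freedom, and the cause of other changes was not tested. Leaving out WTSHAM replicate 1 and KOCKD replicate 3 together was chosen after seeing the data.

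With the study's threshold genes called became 1470 from 299 in WTCKD against WTSHAM, 1874 from 582 in WTCKD + RNLS against WTCKD, 732 from 0 in KOCKD against WTCKD, 1114 from 44 in KOCKD + RNLS against WTCKD + RNLS, 1981 from 0 in the genotype difference, 2086 from 1001 in WTCKD + RNLS against WTSHAM, 2459 from 1448 in KOCKD + RNLS against WTSHAM and 2780 from 1795 in KOCKD against WTSHAM. Calls among the 8 became 3 from 1 in WTCKD against WTSHAM, 1 from 0 in KOCKD + RNLS against KOCKD, 1 from 0 in KOCKD + RNLS against WTCKD + RNLS, 1 from 0 in the genotype difference, 2 from 1 in the mean RNLS effect, 3 from 1 in WTCKD + RNLS against WTSHAM and 2 from 1 in KOCKD + RNLS against WTSHAM. With only the libraries compared genes called became 99 from 299 in WTCKD against WTSHAM, 380 from 582 in WTCKD + RNLS against WTCKD, 2 from 0 in KOCKD against WTCKD, 294 from 1001 in WTCKD + RNLS against WTSHAM and 1127 from 1795 in KOCKD against WTSHAM. Calls among the 8 became 0 from 1 in WTCKD against WTSHAM and 2 from 1 in the mean RNLS effect. With DESeq2 genes called became 577 from 299 in WTCKD against WTSHAM, 876 from 582 in WTCKD + RNLS against WTCKD, 10 from 0 in KOCKD against WTCKD, 358 from 44 in KOCKD + RNLS against WTCKD + RNLS and 374 from 0 in the genotype difference. Calls among the 8 became 1 from 0 in KOCKD + RNLS against WTCKD + RNLS, 1 from 0 in the genotype difference and 2 from 1 in the mean RNLS effect. The sign turned there for Srebf2 -0.008 from 0.001 in KOCKD + RNLS against WTCKD + RNLS and Ctsb 0.003 from -0.005 in WTCKD against WTSHAM. With WTSHAM replicate 1 and KOCKD replicate 3 both left out genes called became 3 from 0 in KOCKD against WTCKD, 133 from 44 in KOCKD + RNLS against WTCKD + RNLS, 395 from 299 in WTCKD against WTSHAM and 812 from 582 in WTCKD + RNLS against WTCKD. Calls among the 8 became 1 from 0 in KOCKD + RNLS against WTCKD + RNLS, 3 from 1 in WTCKD + RNLS against WTSHAM and 4 from 1 in KOCKD + RNLS against WTSHAM. Sqle moved there to -1.13 from -0.21 in KOCKD against WTSHAM. The sign turned there for Srebf2 -0.16 from 0.032 in WTCKD against WTSHAM, Idi1 0.16 from -0.028 in KOCKD + RNLS against KOCKD, Insig1 0.067 from -0.006 in KOCKD + RNLS against KOCKD, Sqle -0.36 from 0.26 in KOCKD against WTCKD, Srebf2 -0.001 from 0.001 in KOCKD + RNLS against WTCKD + RNLS, Sqle 0.58 from -0.037 in the genotype difference and Ctsb 0.014 from -0.032 in KOCKD against WTSHAM. With no filter on low counts genes called became 5 from 0 in KOCKD against WTCKD and 87 from 44 in KOCKD + RNLS against WTCKD + RNLS. The sign turned there for Insig1 0.005 from -0.006 in KOCKD + RNLS against KOCKD. With gene length offsets genes called became 624 from 2095 in KOCKD + RNLS against KOCKD, 1552 from 1001 in WTCKD + RNLS against WTSHAM and 1032 from 1795 in KOCKD against WTSHAM. Calls among the 8 became 0 from 1 in the mean RNLS effect. The sign turned there for Idi1 0.039 from -0.028 in KOCKD + RNLS against KOCKD, Insig1 0.08 from -0.006 in KOCKD + RNLS against KOCKD, Srebf1 -0.056 from 0.027 in KOCKD + RNLS against KOCKD, Cyp51 -0.036 from 0.01 in KOCKD + RNLS against KOCKD, Fdft1 -0.16 from 0.063 in KOCKD + RNLS against KOCKD, Srebf2 -0.055 from 0.001 in KOCKD + RNLS against WTCKD + RNLS, Hmgcs1 0.022 from -0.071 in KOCKD against WTSHAM and Srebf2 0.01 from -0.17 in KOCKD against WTSHAM. With RLE scaling genes called became 4 from 0 in KOCKD against WTCKD. The sign turned there for Srebf2 -0.008 from 0.001 in KOCKD + RNLS against WTCKD + RNLS and Ctsb 0.003 from -0.005 in WTCKD against WTSHAM. With the replicate block genes called became 1 from 0 in KOCKD against WTCKD. The sign turned there for Sqle 0.031 from -0.037 in the genotype difference. Leaving out 1 library at a time, genes called ranged over 136 to 380 in WTCKD against WTSHAM, 209 to 761 in WTCKD + RNLS against WTCKD, 862 to 1476 in KOCKD + RNLS against KOCKD, 0 to 3 in KOCKD against WTCKD, 6 to 35 in KOCKD + RNLS against WTCKD + RNLS, 0 to 2 in the genotype difference, 427 to 1495 in WTCKD + RNLS against WTSHAM, 695 to 1540 in KOCKD + RNLS against WTSHAM, 723 to 2053 in KOCKD against WTSHAM and 1740 to 3727 in any difference among the 5 groups. Calls among the 8 ranged over 0 to 1 in WTCKD against WTSHAM, 1 to 2 in the mean RNLS effect, 1 to 3 in WTCKD + RNLS against WTSHAM and 1 to 3 in KOCKD + RNLS against WTSHAM. Signs turned for Srebf2, over -0.16 to 0.19 in WTCKD against WTSHAM and -0.061 to 0.12 in KOCKD + RNLS against WTCKD + RNLS. They turned for Idi1, over -0.004 to 0.69 in WTCKD against WTSHAM, -0.58 to 0.12 in WTCKD + RNLS against WTCKD, -0.22 to 0.16 in KOCKD + RNLS against KOCKD, -0.14 to 0.55 in the genotype difference, -0.30 to 0.045 in the mean RNLS effect, -0.10 to 0.23 in WTCKD + RNLS against WTSHAM, -0.23 to 0.009 in KOCKD + RNLS against WTSHAM and -0.26 to 0.12 in KOCKD against WTSHAM. They turned for Hmgcs1, over -0.027 to 0.083 in WTCKD + RNLS against WTCKD and -0.14 to 0.005 in KOCKD against WTSHAM. They turned for Srebf1, over -0.27 to 0.084 in WTCKD + RNLS against WTCKD, -0.036 to 0.13 in KOCKD + RNLS against KOCKD, -0.056 to 0.29 in the genotype difference, -0.12 to 0.056 in the mean RNLS effect, -0.02 to 0.09 in KOCKD + RNLS against WTSHAM and -0.087 to 0.078 in KOCKD against WTSHAM. They turned for Cyp51, over -0.084 to 0.079 in KOCKD + RNLS against KOCKD, -0.014 to 0.27 in KOCKD + RNLS against WTCKD + RNLS and -0.067 to 0.22 in WTCKD + RNLS against WTSHAM. They turned for Insig1, over -0.054 to 0.068 in KOCKD + RNLS against KOCKD. They turned for Sqle, over -0.35 to 0.64 in KOCKD against WTCKD, -0.23 to 0.60 in KOCKD + RNLS against WTCKD + RNLS, -0.49 to 0.57 in the genotype difference and -0.82 to 0.12 in KOCKD against WTSHAM. They turned for Fdft1, over -0.11 to 0.055 in KOCKD + RNLS against WTCKD + RNLS. They turned for Ctsb, over -0.026 to 0.01 in WTCKD against WTSHAM, -0.042 to 0.054 in WTCKD + RNLS against WTSHAM and -0.07 to 0.01 in KOCKD against WTSHAM.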

Other observations

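Fatty acid synthesis, the arm of lipid synthesis under SREBP1, showed its clearest difference in Mid1ip1, which encodes a protein that promotes polymerisation of acetyl-CoA carboxylase. Its level was 86.8, 93.1 and 78.5 CPM in WTCKD and 258, 270 and 238 CPM in WTCKD + RNLS, and 91.6, 119 and 130 CPM in KOCKD and 220, 248 and 254 CPM in KOCKD + RNLS. It rose with the virus by 1.57 (SE 0.17, adjusted p = 0.000329) in wild type and by 1.08 (SE 0.16, adjusted p = 0.00153) in knockout by edgeR's quasi-likelihood test, without overlap and in all 13 alternatives of each. WTSHAM replicate 1, apart in clock genes, was the highest sham library, at 157 CPM against 103 and 92.8. Of 14 genes of this list 1 rose and 1 fell in wild type, where 4.47% of all genes were called, the latter Fads1 by -0.49 (adjusted p = 0.0396 by edgeR, kept in 5 of 13 alternatives and lost without WTCKD replicate 1 (0.11), WTCKD replicate 2 (0.128), WTCKD replicate 3 (0.0715), WTCKD + RNLS replicate 1 (0.101), WTCKD + RNLS replicate 2 (0.0615) or WTCKD + RNLS replicate 3 (0.104), at -0.51 to -0.47, and with a replicate block (0.0598) or gene length offsets (0.0553)), and 2 rose in knockout, where 16.1% of all genes were called, Mid1ip1 and Acacb by 0.44 (adjusted p = 0.00904), of which Acacb was lost with gene length offsets (0.19, adjusted p = 0.361). By edgeR none was called in WTCKD against WTSHAM or KOCKD against WTCKD, where 2.3% and 0% of all genes were. In these comparisons 4 and 5 of the 14 had an unadjusted p below 0.05, against 2298 and 1318 of all 13021 genes.

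Of 12 LXR and oxysterol genes, 0 were called by edgeR with the virus in wild type (0 at an unadjusted p below 0.05), against 4.47% of all genes, and 2 rose in knockout, against 16.1%. Abca1, the cholesterol exporter, went from 38.8, 32.9 and 33.4 CPM to 56.7, 56.4 and 69.4 CPM, by 0.80 (SE 0.16, adjusted p = 0.00455 by edgeR, lost with gene length offsets at 0.0769). Mylip, a ubiquitin ligase for lipoprotein receptors, rose by 0.67 (SE 0.20, adjusted p = 0.0378 by edgeR, kept in 6 of 13 alternatives and lost without KOCKD replicate 1 (0.12), KOCKD replicate 2 (0.0672), KOCKD replicate 3 (0.0744), KOCKD + RNLS replicate 1 (0.107), KOCKD + RNLS replicate 2 (0.106) or KOCKD + RNLS replicate 3 (0.0515), at 0.57 to 0.75, and with gene length offsets (0.0569)). The difference between genotypes for Abca1 was 0.66 with an adjusted p of 0.167 by edgeR. Of 10 genes of the isoprenoid branches 0 were called by edgeR in WTCKD against WTSHAM, WTCKD + RNLS against WTCKD, KOCKD + RNLS against KOCKD or KOCKD against WTCKD, where 2.3%, 4.47%, 16.1% and 0% of all genes were. In the same order 0, 1, 4 and 1 of the 10 had an unadjusted p below 0.05, against 2298, 2630, 4116 and 1318 of all 13021 genes. In KOCKD + RNLS against KOCKD, Myh6 and Ryr2 of 8 cardiomyocyte markers rose (0.52 and 0.34), while the other 6 were lower and not called, with a median of -0.083 over the 8. Ryr2 was lost without KOCKD replicate 2 (0.084), KOCKD + RNLS replicate 1 (0.0597) or KOCKD + RNLS replicate 2 (0.0616), as adjusted p by edgeR, and with gene length offsets it was level (0.007, adjusted p = 0.978, in a range of 0.00182 to 0.978 over 13 alternatives). There Sln, Myl4 and Myl7 of 4 atrial markers fell, each kept in at most 8 of its alternatives. Myl4 fell by -7.38, which without KOCKD replicate 3 was -4.43 (adjusted p = 0.159 by edgeR, range 0.000212 to 0.159), with Myl7 at 0.325, 0.662 and 0.749 CPM in KOCKD + RNLS. Of 7 adipocyte, 6 fibroblast and 6 macrophage markers 1 each was called there, against 16.1% of all genes, namely Fabp4 (-0.53), Col1a1 (-1.10) and C1qa (-0.47), all lower, while 2 of the fibroblast markers were higher and not called. These calls were kept in 8 of 13 alternatives for Fabp4, 11 of 13 alternatives for Col1a1 and 7 of 13 alternatives for C1qa. Fabp4 did not follow the other adipocyte markers, since it was highest in KOCKD replicate 2, at 806 CPM, where the other 6 summed to 0.28 CPM. With gene length offsets Fabp4 was -0.18 (adjusted p = 0.428, range 0.00288 to 0.428) and C1qa -0.17 (adjusted p = 0.427, range 0.00896 to 0.427) by edgeR. The calls were lost for Fabp4 without KOCKD replicate 2 (0.102), KOCKD + RNLS replicate 1 (0.0585), KOCKD + RNLS replicate 2 (0.0643) or KOCKD + RNLS replicate 3 (0.0645), and for C1qa without KOCKD replicate 1 (0.0758), KOCKD replicate 2 (0.0939), KOCKD replicate 3 (0.05), KOCKD + RNLS replicate 2 (0.125) or KOCKD + RNLS replicate 3 (0.127). Col1a1 was no longer called when KOCKD replicate 1 (0.0554) was dropped, nor when replicate 2 of KOCKD + RNLS (0.0589) was. The 4 brown adipocyte markers, led by Cidea at 20.7 to 40.6 CPM, summed to 23.4 to 43.4 CPM over the 15 libraries. In KOCKD replicate 1 the sum was 42.3 CPM, of which Cidea made 32.4 CPM. Only 2 of these markers passed the filter, with none called in these 4 comparisons, and Ucp1, with at most 83 reads in a library, did not pass it.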
